A study of Homo sapiens with 20 samples.

Results

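The light polysome arrays of BE(2)-C cells transfected with lncNB1 siRNA-1 or with control siRNA were compared across all genes. They were chosen by their titles and make up 7 of the 20 arrays of the series, with 3 arrays of siRNA-1 (replicates 1, 2 and 4) and 4 arrays of control siRNA (replicates 1 to 4). BE(2)-C is an established human neuroblastoma line with amplification of the MYCN oncogene. lncNB1 is a long noncoding RNA that is expressed in such cells, and the study asked which mRNAs change on ribosomes when it is knocked down. All cells received an siRNA for 48 h and then cycloheximide, which holds ribosomes on mRNA, before lysates were separated on a sucrose gradient. From each light polysome fraction, 100 ng of RNA went onto a Clariom S array (Affymetrix). The control differs from siRNA-1 only in the siRNA. 3 light arrays of a second lncNB1 siRNA, siRNA-2, and the heavy polysome arrays of the same siRNAs served for comparison.

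An mRNA that carries few ribosomes sediments in light polysomes, and one that carries many sediments in heavy polysomes. A change in the light fraction can therefore accompany a change in the amount of an mRNA or a change in how many ribosomes each copy carries. siRNAs direct the cleavage of RNAs with a matching sequence, and the part of an siRNA that acts as a seed can also lower other mRNAs, which is why knockdown studies use more than 1 siRNA. E2F transcription factors, with their DP partners, switch on genes for DNA replication at the start of S phase. A later wave of genes for the spindle and for cell division is repressed outside G2 and mitosis by the DREAM complex, which binds a promoter element called the cell cycle homology region.

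Values are the deposited log2 intensities, so a difference of 1 is a doubling. Because the authors' normalisation gives all arrays nearly the same distribution, a difference compares an mRNA with the rest of its fraction and not with a fixed amount. In bulk RNA, fewer cells with an mRNA and fewer copies per cell cannot be told apart. Whether replicates were separate cultures is not in the sample labels, and p-values rest on the spread of these arrays, which may be technical. Replicates of a group correlated at 0.986 to 0.991 for siRNA-1 and 0.988 to 0.992 for control. The first principal component of the 10 light arrays held 37.1% of the variance. The siRNA-1 arrays lay at 34.1, 36.6 and 28.0 on it, the siRNA-2 arrays between -22.4 and -11.7 and the control arrays between -19.5 and -8.34. Signals of 612 negative control probe sets had 95th percentiles of 4.82 to 5.23 on the 7 siRNA-1 and control arrays, and a value under its own array's percentile was taken as not above background. Adrenergic neuroblastoma markers were present, with control means of 12.28 for MYCN, 9.85 for GATA3, 9.72 for HAND2 and 9.07 for PHOX2A. Of 14 stromal, endothelial and leukocyte markers, DCN differed, with means of 6.71 in siRNA-1 and 6.01 in control arrays, while the markers PTPRC and MS4A1 of leukocytes and KDR of endothelium averaged 3.27 to 4.27 with siRNA-1 and 3.11 to 4.06 in controls. Not all markers of this list were dim, and PDGFRB and CD68 were above background in both groups. PDGFRB averaged 7.78 with siRNA-1 and 8.09 in controls, CD68 averaged 6.26 and 6.03, and neither passed. Over all 20 arrays, light and heavy fractions were separated on the first component, with the heavy replicate 1 arrays of siRNA-1 (-8.19) and control (-6.50) nearest to the light ones. None of the 6 measured Schwann cell markers passed the test. The level of lncNB1 itself was not analysed here.

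Of 21448 transcript clusters tested, 2486 (11.6%) differed between siRNA-1 and control in light polysomes at an adjusted p under 0.05 (limma with Benjamini-Hochberg adjustment). Of these, 1130 (5.27%) were higher and 1356 (6.32%) were lower with siRNA-1. The median difference was 0.64 log2 for the higher clusters and -0.63 for the lower ones, and the smallest difference that passed was 0.36. At least a doubling was reached by 160 of the higher clusters (0.746% of all tested), and at least a halving by 135 of the lower ones (0.629%). The siRNA-1 arrays lay above all control arrays in 2037 clusters (9.5%) and below all of them in 2363 (11.0%). The number of calls rested most on siRNA-1 replicate 2: without that array 1531 clusters passed.

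The other siRNA against lncNB1 gave a different picture in the same fraction and against the same 4 control arrays. With siRNA-2, 88 clusters (0.41%) passed the same test, 41 higher (0.191%) and 47 lower (0.219%) than control. Clusters that were higher with siRNA-1 had a median difference of 0.06 with siRNA-2, and those lower with siRNA-1 had a median of -0.05. In the direct test of siRNA-1 against siRNA-2, whose difference uses no control value although the control arrays enter the estimate of the spread, 2635 clusters (12.3%) differed, 1203 higher (5.61%) and 1432 lower (6.68%) with siRNA-1. Of the 1130 clusters higher with siRNA-1 than with control, 741 were also higher than with siRNA-2. Of the 1356 lower ones, 922 were also lower than with siRNA-2. Both contrasts use the same siRNA-1 arrays, so part of this overlap is built in.

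The largest rise was that of SLITRK6, a leucine-rich transmembrane protein of neurons that promotes neurite growth and synapse formation. Its log2 intensity was 7.38, 8.06 and 7.76 in siRNA-1 replicates 1, 2 and 4, against 4.10, 4.22, 3.67 and 3.75 in control replicates 1 to 4. All siRNA-1 arrays were far above all control arrays, whose values were not above background, so the rise was at least 6.11-fold (difference 3.79 ± 0.17, SE; adjusted p = 1.11e-08, limma). The siRNA-2 arrays gave 4.04, 4.06 and 4.06 and overlapped the controls.

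CASP4, an inflammatory caspase that senses cytosolic lipopolysaccharide, was 8.10, 8.51 and 8.32 with siRNA-1, against 5.72, 6.08, 6.21 and 6.18 in controls. The groups were apart by more than their whole spread, with a difference of 2.26 ± 0.15 (SE), or 4.79-fold, and an adjusted p of 1.23e-06 (limma). TP53INP1, a target of p53 that acts in stress-induced autophagy and apoptosis, was 7.60, 7.52 and 7.24 with siRNA-1, against 5.01, 5.21, 5.58 and 5.21 in controls. It was 4.6-fold higher (adjusted p = 1.94e-06, limma), again with no overlap. SAMD9, an interferon-inducible antiviral factor, was 6.18, 6.36 and 6.09 with siRNA-1, against 4.13, 3.60, 3.80 and 3.20 in controls. Its control signals were not above background, which makes the rise at least 2.13-fold (adjusted p = 3.68e-06, limma). None of these 3 genes passed with siRNA-2 (differences -0.26, 0.20 and -0.02 log2, adjusted p = 0.613, 0.757 and 0.989, limma).

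The other genes of the top 15 were of mixed kinds. PI15, a secreted peptidase inhibitor, was 9.04, 9.76 and 9.44 with siRNA-1, against 6.95, 6.70, 7.46 and 6.79 in controls, a 5.42-fold difference. LUM encodes lumican, a collagen-binding proteoglycan, and was 8.15, 7.61 and 7.12 with siRNA-1, against 5.65, 5.42, 5.10 and 4.79 in controls, a 5.22-fold difference. In both genes every siRNA-1 array lay above every control array. ABCA12, a lipid transporter, was 10.26, 10.32 and 9.98 with siRNA-1 and 9.45, 8.68 and 9.16 with siRNA-2, against 8.19, 7.63, 8.15 and 7.83 in controls. It was 1 of 7 clusters that passed in the higher direction with both siRNAs (adjusted p = 4.95e-06 with siRNA-1 and 0.0147 with siRNA-2, limma), and its siRNA-1 arrays lay above those of siRNA-2. Both tests share the control arrays, so part of such an overlap is built in, here and for other genes that passed with both siRNAs. The ANO3 membrane protein, HIGD1C and the orphan receptor GPR85 were also among the 15, with differences of 2.33, 2.10 and 2.07 log2. GDF9, a growth factor of the TGF-beta family, FILIP1L and RYR2, the intracellular calcium release channel of heart and neurons, had control signals not above background and were at least 2.77-fold, 2.52-fold and 1.1-fold higher. TP53TG3D and TP53TG3C were higher by 2.60 and 2.28 log2, and as near-identical copies their signals cannot be told apart.

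**Figure D1:**
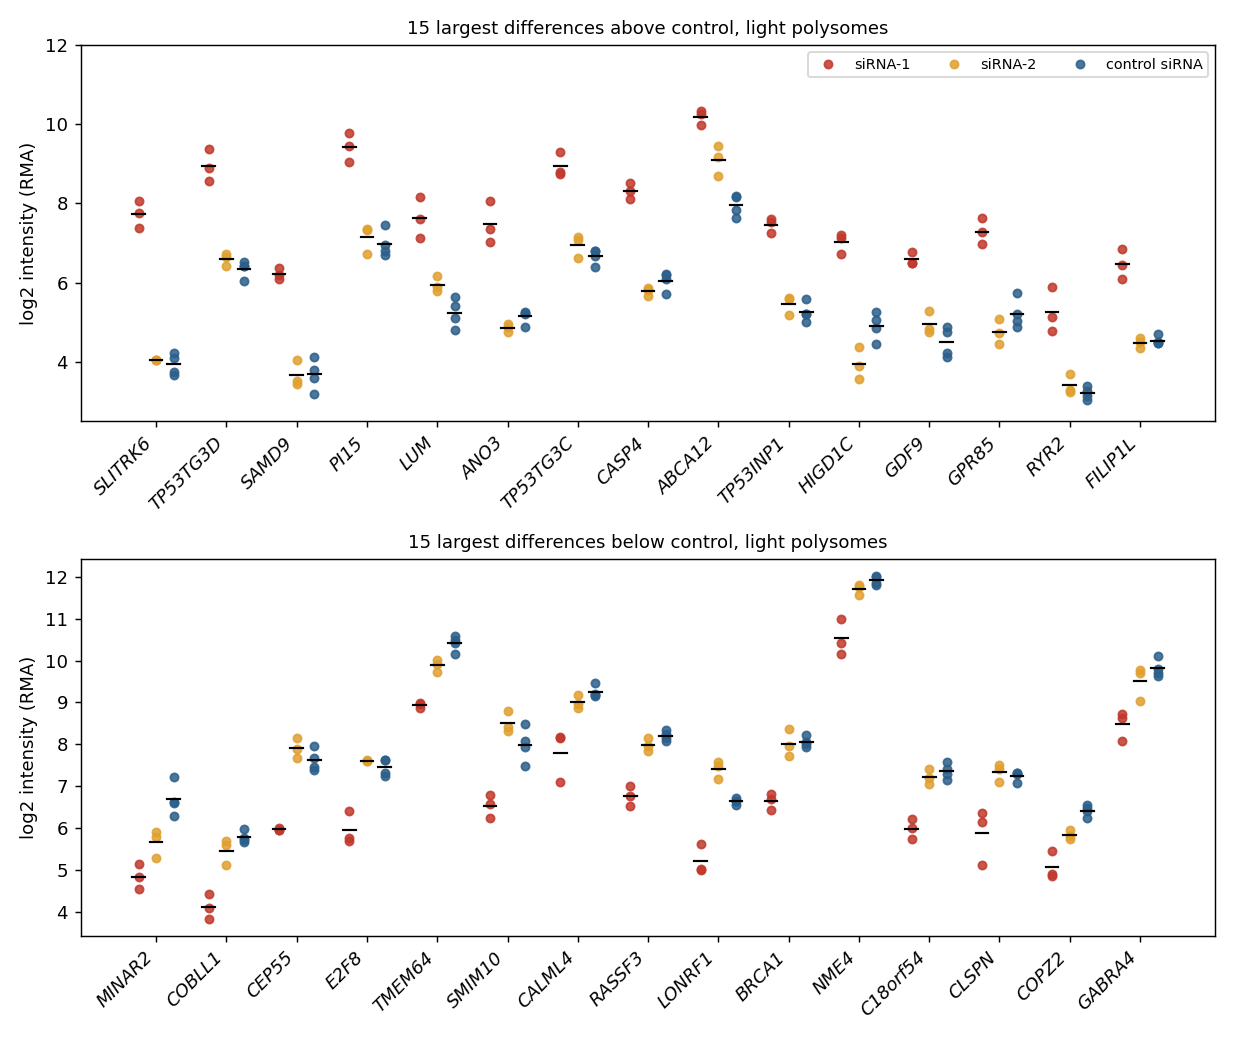
Log2 intensity (vertical axis) in each light polysome array for the 15 largest differences above control (top) and below control (bottom), with siRNA-1, siRNA-2 and control siRNA from left to right within each gene, points for arrays and black lines for group means. In SLITRK6 the siRNA-1 arrays sit between 7.38 and 8.06 and the control arrays between 3.67 and 4.22, and in CEP55 the siRNA-1 arrays lie together near 6 while the siRNA-2 and control arrays share a range.

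Among the largest falls, several were genes of DNA replication, repair and cell division. CEP55, a scaffold of the midbody that is needed for the last step of cytokinesis, was 5.96, 5.95 and 6.0 with siRNA-1, against 7.39, 7.67, 7.96 and 7.46 in controls. It was 3.14-fold lower (difference -1.65 ± 0.15, SE; adjusted p = 1.37e-05, limma), and the siRNA-1 values were nearly equal. E2F8, a repressive E2F that is itself an E2F target, was 6.41, 5.69 and 5.75 with siRNA-1, against 7.30, 7.25, 7.63 and 7.62 in controls, and was 2.82-fold lower (adjusted p = 6.15e-05, limma). BRCA1, which acts in homologous recombination, was 6.44, 6.81 and 6.70 with siRNA-1, against 7.93, 8.05, 8.22 and 8.02 in controls, and was 2.65-fold lower (adjusted p = 5.55e-05, limma). CLSPN encodes claspin, which links stalled replication forks to the checkpoint kinase CHK1, and was 6.36, 5.12 and 6.15 with siRNA-1, against 7.32, 7.29, 7.31 and 7.08 in controls. It was 2.59-fold lower (adjusted p = 0.000952, limma), with siRNA-1 replicate 2 more than 1 log2 below the other siRNA-1 arrays. In all 4 genes the groups did not overlap, and the siRNA-2 difference lay between -0.03 and 0.28 log2.

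Other large falls had no shared role. MINAR2, a small membrane protein, was 5.15, 4.55 and 4.82 with siRNA-1, against 6.6, 6.62, 7.22 and 6.30 in controls. The siRNA-1 signals were not above background, so the fall was at least 3.21-fold (adjusted p = 6.28e-05, limma). It also fell with siRNA-2 (difference -1.03, adjusted p = 0.0466, limma). TMEM64, a membrane protein, was 8.87, 8.95 and 8.98 with siRNA-1, against 10.16, 10.48, 10.59 and 10.42 in controls, and was 2.79-fold lower. NME4, a mitochondrial nucleoside diphosphate kinase, was 10.43, 10.15 and 11.00 with siRNA-1, against 11.81, 11.99, 12.01 and 11.85 in controls, and was 2.62-fold lower. In neither gene did an siRNA-1 array reach a control array. LONRF1 had a difference of -1.43 log2 with siRNA-1 and 0.76 log2 with siRNA-2 (adjusted p = 5.23e-05 and 0.0485, limma). COBLL1 was at least 1.72-fold lower, with siRNA-1 signals not above background. SMIM10, CALML4, RASSF3, C18orf54, COPZ2 and GABRA4, a GABA-A receptor subunit, complete the 15, at -1.33 to -1.46 log2.

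The fall of cell cycle genes was the broadest pattern in the light fraction. Of 70 measured E2F targets and DNA replication genes, 57 were lower with siRNA-1 and 0 were higher, with a median of -0.73 log2, against a background of 6.32% lower and a median of 0.00 over all clusters. Of 88 measured genes of mitosis and the spindle checkpoint, 77 were lower and 0 higher, with a median of -0.78. Of 32 homologous recombination and Fanconi genes, 18 were lower and 0 higher, with a median of -0.64. The lists were chosen with earlier results of these data known, so these counts describe the list and are no independent evidence of its direction. The 4 cell cycle lists, histones included, held 241 measured genes, and their 178 lower members made up 13.1% of all lower clusters.

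The shift was seen in each siRNA-1 array. Relative to the control mean of each gene, the median E2F target lay at -0.70, -0.82 and -0.66 in siRNA-1 replicates 1, 2 and 4, against -0.01, -0.07, 0.08 and 0.02 in control replicates 1 to 4. The median mitosis gene lay at -0.73, -0.84 and -0.75 with siRNA-1, against -0.04, -0.02, 0.04 and 0.03 in controls. With siRNA-2, 1 E2F target and 0 mitosis genes were lower, with a median of -0.04 for both lists. In the direct test, 49 of the 70 E2F targets and 71 of the 88 mitosis genes were lower with siRNA-1 than with siRNA-2.

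Within replication, CCNA2, the cyclin of S phase and G2, was 8.99, 9.20 and 9.02 with siRNA-1, against 10.15, 10.35, 10.55 and 10.27 in controls. It was 2.4-fold lower (adjusted p = 4.26e-05, limma), with no overlap. DNA2, a nuclease and helicase that processes replication intermediates, was 2.41-fold lower and DSCC1, which helps to load the sliding clamp and to join sister chromatids, 2.16-fold lower (adjusted p = 0.000124 and 8e-05, limma). Not every replication gene fell. MCM7, a subunit of the replicative helicase, stood at 0.36 (adjusted p = 0.106, limma) and MCM2, another subunit, at -0.12 (adjusted p = 0.658, limma), and both were chosen after their values were seen.

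Within mitosis, KIF11, the kinesin that pushes spindle poles apart, was 8.0, 8.08 and 8.14 with siRNA-1, against 9.13, 9.19, 9.0 and 9.01 in controls, a 2.01-fold fall. CENPU, a kinetochore protein, was 8.97, 8.99 and 9.05 with siRNA-1, against 9.94, 9.98, 10.06 and 10.13 in controls, a 2.03-fold fall. KIF20B, a kinesin of cytokinesis, fell 2.1-fold. In these 3 genes the replicates of each group lay within 0.2 log2 of each other, and the adjusted p was 6.15e-05, 5.55e-05 and 5.79e-05 (limma). In homologous recombination and Fanconi repair, BRIP1, a helicase partner of BRCA1, fell by 1.04 log2, MND1, a recombinase cofactor, by 1.07 and FANCB, a core complex subunit, by 0.87.

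Replication-dependent histone mRNAs, which end in a stem-loop and not in a poly(A) tail and are made in S phase, were lower in 26 of 51 and higher in 1, with a median of -0.52. They were less even between arrays than the other cell cycle lists, with list medians of -0.56, -0.77 and -0.19 in siRNA-1 replicates 1, 2 and 4, against -0.06 to 0.10 in controls. Without siRNA-1 replicate 2, 10 of the 51 were lower. H3C2 was 9.17, 8.50 and 9.61 with siRNA-1, against 10.27, 10.10, 10.23 and 10.43 in controls (adjusted p = 0.00163, limma). The exception was H2AC15, at 9.18, 9.12 and 9.12 with siRNA-1, against 8.03, 8.13, 7.92 and 8.12 in controls, 2.13-fold higher (adjusted p = 4.76e-05, limma). Histone genes have near-identical copies, so a signal may mix several of them.

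**Figure D2:**
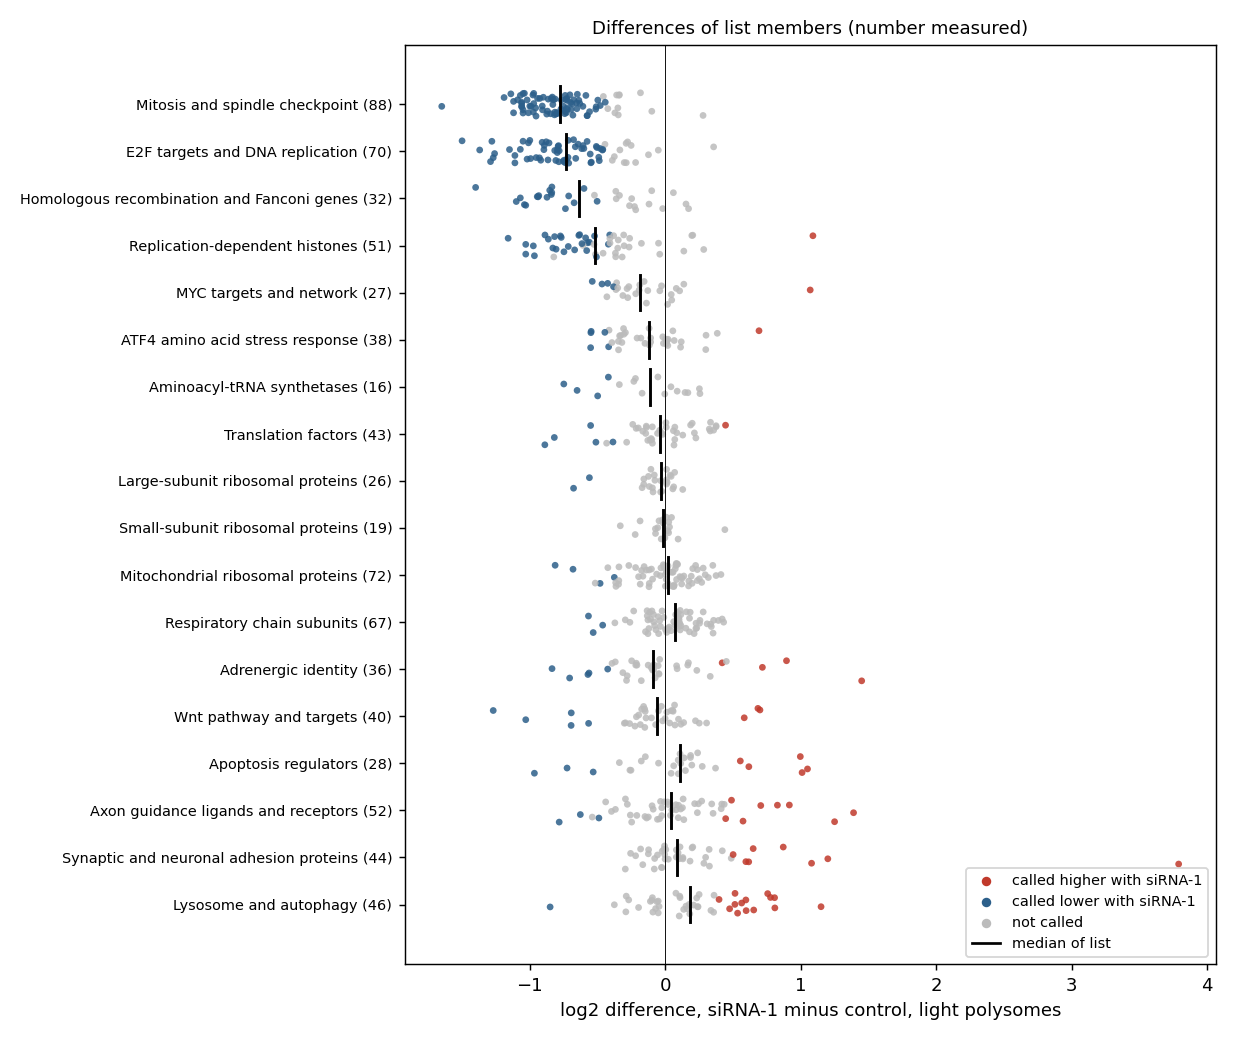
Log2 difference of siRNA-1 minus control in light polysomes (horizontal axis) for each measured member of 18 gene lists, with the number measured in parentheses. Red points were called higher, blue points called lower and grey points not called, and the black bar is the list median. The 4 cell cycle lists at the top lie left of 0, with medians of -0.78, -0.73, -0.64 and -0.52, while the medians of ribosomal protein lists lie within 0.03 of 0.

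The promoters of the genes that fell were read for the letters of 3 known elements. Shown are the 250 bases before the start site for E2F targets and mitosis genes with large falls, 2 of each list, from RefSeq (GRCh38.p14, strand of the gene, 5′ to 3′). Capitals mark matches on either strand to an E2F site (TTTCCCGC, TTTCGCGC, TTTGCCGC or TTTGGCGC), the cell cycle homology region (TTTGAA) or a CCAAT box (CCAAT), and they show which elements each promoter holds.
CLSPN, chr1:35769979-35770228, minus strand: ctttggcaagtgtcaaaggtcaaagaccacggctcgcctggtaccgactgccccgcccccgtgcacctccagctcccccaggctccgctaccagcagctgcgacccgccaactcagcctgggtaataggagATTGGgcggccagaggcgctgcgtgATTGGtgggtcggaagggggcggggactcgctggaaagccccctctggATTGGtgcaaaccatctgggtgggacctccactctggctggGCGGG
MCM6, chr2:135876444-135876693, minus strand: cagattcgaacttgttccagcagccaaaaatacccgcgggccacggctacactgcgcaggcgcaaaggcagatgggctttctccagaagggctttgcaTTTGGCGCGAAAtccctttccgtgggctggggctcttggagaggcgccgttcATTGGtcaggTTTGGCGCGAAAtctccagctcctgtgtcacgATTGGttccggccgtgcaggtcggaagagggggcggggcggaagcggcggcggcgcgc
CEP55, chr10:93496362-93496611, plus strand: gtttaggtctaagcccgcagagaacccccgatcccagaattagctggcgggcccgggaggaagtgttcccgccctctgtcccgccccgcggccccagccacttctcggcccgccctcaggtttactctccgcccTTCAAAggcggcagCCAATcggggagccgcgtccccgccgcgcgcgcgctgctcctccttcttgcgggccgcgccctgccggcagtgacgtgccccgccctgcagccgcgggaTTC
SGO1, chr3:20186207-20186456, minus strand: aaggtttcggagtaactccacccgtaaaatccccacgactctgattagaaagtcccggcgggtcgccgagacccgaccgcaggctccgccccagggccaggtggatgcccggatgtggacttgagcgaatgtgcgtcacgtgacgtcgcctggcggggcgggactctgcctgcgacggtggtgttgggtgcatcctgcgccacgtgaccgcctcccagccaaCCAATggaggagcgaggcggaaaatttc

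MCM6, a helicase subunit, holds 4 E2F matches in 2 overlapping pairs, each with 1 match per strand. MCM6 fell by 1.28 log2 and SGO1 by 1.12. The E2F match of CLSPN and the second homology region match of CEP55 start 5 and 3 bases before the start site and run past the printed end. CLSPN also holds 3 CCAAT boxes and MCM6 holds 2, and SGO1, which protects sister chromatid cohesion, holds 1 CCAAT box and no other match.

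Over 27305 promoters of 300 bases (250 before to 50 after the most upstream start of each gene), 3.34% held an E2F match, 15.5% a homology region match and 35.7% a CCAAT match. Among the measured genes with a promoter (14250), the E2F letters stood in 10.3% of 989 lower genes, in 4.31% of 789 higher genes and in 4.01% of genes not called. Of the E2F targets and DNA replication genes, 45.8% of 59 held them, and of the lower genes outside the 4 cell cycle lists, 7.29% of 837. The homology region stood in 63.0% of 73 mitosis genes, in 15.8% of all lower genes, in 11.3% of higher genes and in 11.9% of genes not called, and in 12.1% of the lower genes outside the 4 cell cycle lists, against 12.1% of all measured genes. CCAAT stood in 69.9% of the mitosis genes, in 44.2% of lower genes (335 of the 837 outside the lists), in 36.0% of higher genes and in 35.9% of genes not called. These are shares of letters in fixed windows, with no test.

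Genes at the centre of the study changed unequally. E2F1, the activating E2F, was 8.64, 8.96 and 9.21 with siRNA-1, against 9.16, 9.60, 9.45 and 9.56 in controls. The groups overlapped, the difference was -0.50 ± 0.15 (SE; adjusted p = 0.0394, limma), and the call was lost on leaving out any of 7 of the 10 light arrays (siRNA-1 replicates 1 and 2, siRNA-2 replicates 1 and 3 or control replicates 2, 3 and 4), with an adjusted p of up to 0.166. Its DP partners moved in opposite directions, where TFDP1 fell by 0.81 log2 and TFDP2 rose by 0.52 (adjusted p = 0.00162 and 0.00711, limma). E2F3, another activating E2F, stood at -0.24 (adjusted p = 0.327, limma).

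DEPDC1B, a signalling protein with a DEP domain that promotes mitotic entry, was 7.51, 7.22 and 7.64 with siRNA-1 and 8.15, 8.25 and 8.27 with siRNA-2, against 8.47, 8.51, 8.74 and 8.59 in controls. It was 2.18-fold lower with siRNA-1 (difference -1.12 ± 0.13, SE; adjusted p = 7.3e-05, limma). The siRNA-2 arrays lay between the other groups, all below the controls, with a difference of -0.36 that did not pass (adjusted p = 0.331, limma). The 2 siRNAs differed in the direct test (-0.77, adjusted p = 0.00182, limma). MYCN was 12.06, 11.70 and 11.81 with siRNA-1, against 12.35, 12.33, 12.18 and 12.26 in controls, with a difference of -0.43 (adjusted p = 0.0314, limma), a call lost on leaving out any of 5 arrays (siRNA-1 replicates 2 and 4 or control replicates 1, 2 and 4). RPL35, a protein of the large ribosomal subunit, was 11.40, 11.68 and 11.78 with siRNA-1, against 11.68, 11.72, 11.80 and 11.67 in controls, and the groups overlapped (95% interval of the difference -0.35 to 0.16). TUBB2A and TUBB2B, tubulin genes next to lncNB1, stood at -0.06 and -0.13 and did not pass.

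The translation machinery as a whole moved little in the light fraction. Of 26 large-subunit ribosomal protein genes, 2 were lower, RPL29 at -0.68 log2 and RPL6 at -0.56 (adjusted p = 0.0052 and 0.0109, limma), and of 19 small-subunit genes 0 passed, with list medians of -0.03 and -0.02. RPL6 did not pass without siRNA-1 replicate 2 (adjusted p = 0.0663, limma). Of 72 mitochondrial ribosomal protein genes 4 were lower (5.56%), and of 67 respiratory chain subunits 3 were lower (4.48%), both near the 6.32% of all clusters. Of 43 translation factors, 5 were lower (11.6%) and 1 higher (2.33%), against 6.32% and 5.27% of all clusters. EIF4EBP1, the repressor of cap-dependent translation that mTOR phosphorylates, was 9.81, 9.85 and 10.32 with siRNA-1 and 11.15, 11.30 and 11.10 with siRNA-2, against 10.76, 10.86, 11.00 and 10.91 in controls. Every siRNA-1 array was below and every siRNA-2 array above every control array (adjusted p = 0.000723 for siRNA-1 and 0.492 for siRNA-2, limma).

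The amino acid stress response differed between the siRNAs more than from control. ATF4 is a transcription factor that induces amino acid synthesis, transport and tRNA charging genes when the integrated stress response is active. Of 38 measured genes of this response, 5 were lower (13.2%) and 1 higher (2.63%) with siRNA-1, against 6.32% and 5.27% of all clusters. The list median was -0.12. With siRNA-2 0 were lower and 7 higher, against 0.219% and 0.191% of all clusters, with a median of 0.36. In the direct test 19 of the 38 were lower with siRNA-1 than with siRNA-2 and 0 were higher, against 6.68% and 5.61% of all clusters. SLC7A11, the cystine transporter, rose with both, at 7.44, 7.45 and 7.23 with siRNA-1 and 8.85, 9.03 and 8.60 with siRNA-2, against 6.81, 6.67, 6.65 and 6.59 in controls (adjusted p = 0.00259 and 9.8e-07, limma). Its siRNA-2 arrays were all more than 1 log2 above its siRNA-1 arrays.

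The tRNA synthetases were part of this contrast, with 4 of 16 lower and 0 higher with siRNA-1. YARS1, the tyrosyl enzyme, was 8.17, 8.11 and 8.11 with siRNA-1 and 9.29, 9.24 and 9.23 with siRNA-2, against 8.85, 8.89, 8.87 and 8.90 in controls. The 3 groups did not overlap, and the siRNA-1 difference was -0.75 ± 0.11 (SE; adjusted p = 0.00033, limma). AARS1, the alanyl enzyme, fell by 0.65 log2 with siRNA-1. XPOT, the exporter of tRNAs, MTHFD2, a mitochondrial folate enzyme, and PYCR1, a proline synthesis enzyme, fell by 0.45 to 0.55 log2, and XPOT did not pass without siRNA-1 replicate 1 or 4 (adjusted p up to 0.0675, limma).

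Some neuronal adhesion and guidance genes rose beside SLITRK6. Of 44 measured synaptic and neuronal adhesion proteins, 8 were higher and 0 lower, against 5.27% higher among all clusters, and the list median was 0.09. SLITRK1, a relative of SLITRK6, was 9.35, 9.48 and 9.69 with siRNA-1, against 8.42, 8.29, 8.13 and 8.37 in controls, 2.3-fold higher (adjusted p = 4.5e-05, limma). FLRT3, a cell adhesion protein that binds latrophilin and UNC5 receptors, was 9.09, 9.09 and 8.88 with siRNA-1, against 8.15, 7.90, 7.86 and 7.84 in controls, 2.12-fold higher (adjusted p = 0.000113, limma). In both genes the groups did not overlap.

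Of 52 axon guidance ligands and receptors, 8 were higher and 3 lower (15.4% and 5.77%, against 5.27% and 6.32% of all clusters), and without siRNA-1 replicate 2 the higher ones numbered 5. The semaphorin ligands SEMA3E and SEMA3A rose by 1.25 and 0.83 log2, and the receptors PLXNC1 and NRP1 by 1.39 and 0.92 log2 (adjusted p = 0.00017, 0.000393, 0.000428 and 0.000577, limma). PLXNC1 was 7.26, 8.38 and 8.01 with siRNA-1, against 6.33, 6.56, 6.49 and 6.59 in controls, and the siRNA-1 arrays were spread over more than 1 log2. Most members of both lists did not pass, 36 and 41 of them.

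Neuroblastoma identity genes were split. Of 36 measured genes of adrenergic identity, 4 were higher (11.1%) and 5 lower (13.9%), against 5.27% and 6.32% of all clusters. The list median was -0.09. In the shorter list of adrenergic cell type markers all 8 measured lay below 0, with a median of -0.28, and 3 were lower and 0 higher. The transcription factor HAND2 was 8.87, 8.85 and 8.93 with siRNA-1, against 9.62, 9.64, 9.86 and 9.76 in controls, 1.79-fold lower (adjusted p = 0.000222, limma), and ISL1, another, was 1.63-fold lower (adjusted p = 0.00149, limma). The siRNA-2 arrays of HAND2 were 9.79, 9.79 and 9.80, within the control range. NPY, a neuropeptide of sympathetic neurons, was 10.42, 10.62 and 10.85 with siRNA-1 and 9.36, 9.10 and 9.04 with siRNA-2, against 9.64, 9.62, 9.85 and 9.82 in controls. It was higher with siRNA-1 by 0.90 log2 (adjusted p = 0.000576, limma), while siRNA-2 arrays lay below the controls (difference -0.57, adjusted p = 0.099, limma). SCG5, a secretory granule chaperone, rose 2.73-fold. Of 29 mesenchymal identity genes, TWIST1 alone passed, at -0.60 log2.

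Lysosome and autophagy genes leaned upward. Of 46 measured, 14 were higher (30.4%) and 1 lower (2.17%), against 5.27% and 6.32% of all clusters, with a median of 0.18. ATG14, a subunit of the autophagy lipid kinase complex, was 8.57, 8.98 and 8.72 with siRNA-1, against 7.78, 7.99, 8.01 and 8.03 in controls (adjusted p = 0.0009, limma). HEXA, a lysosomal hexosaminidase, was 8.66, 8.26 and 8.43 with siRNA-1, against 7.67, 7.66, 7.79 and 7.65 in controls (adjusted p = 0.000909, limma). Both were apart in all arrays. ATP6V0D1, a subunit of the proton pump that acidifies lysosomes, rose by 0.56 log2, and GLA, a lysosomal galactosidase, fell by 0.85. Without control replicate 1, 9 of the 46 were higher.

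Caspase and death receptor genes gave both signs. Of 28 apoptosis regulators, 5 were higher (17.9%) and 3 lower (10.7%), against 5.27% and 6.32% of all clusters. CFLAR, which blocks caspase activation at death receptors, was 10.21, 10.10 and 10.04 with siRNA-1, against 8.98, 8.82, 9.53 and 9.15 in controls, 2-fold higher (adjusted p = 0.000917, limma). APAF1, the scaffold of the apoptosome, was 4.24, 4.33 and 4.74 with siRNA-1, against 5.68, 5.18, 5.58 and 5.18 in controls, with siRNA-1 not above background and a fall of at least 1.32-fold (adjusted p = 0.00183, limma). CASP10 differed (adjusted p = 0.00134, limma), but neither group was above background. Of 22 p53 targets, 3 were higher (13.6%), TP53INP1, TIGAR and TP53I3, and 3 lower (13.6%), with a median of 0.04. TIGAR did not pass without siRNA-1 replicate 2 (adjusted p = 0.051, limma).

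Among all clusters, 5.27% were higher and 6.32% lower with siRNA-1. Of 24 cell cycle inhibitors and quiescence genes, 4 were higher (16.7%) and 3 lower (12.5%), with a median of -0.04. Of 27 genes of the MYC network 1 was higher (3.7%) and 4 lower (14.8%), with a median of -0.19. The 1 higher gene, MXD1, a MAX partner that opposes MYC, was 8.33, 8.34 and 8.22 with siRNA-1, against 7.03, 7.38, 7.30 and 7.22 in controls, 2.09-fold higher (adjusted p = 7.65e-05, limma). TXNIP and ARRDC4, paired arrestin-like genes that limit glucose uptake, rose 2.45-fold and 2.53-fold with siRNA-1 (adjusted p = 2.36e-05 and 8.03e-05, limma). They rose with siRNA-2 too (adjusted p = 0.013 and 0.0281, limma). HBP1, a repressor of cell cycle entry, rose by 0.92 log2, whereas CDKN1B, the CDK inhibitor p27, was 8.10, 7.95 and 7.84 with siRNA-1, against 8.58, 8.63, 8.58 and 8.64 in controls, with a difference of -0.64 (adjusted p = 0.00166, limma). In the Wnt pathway 3 of 40 were higher (7.5%) and 5 lower (12.5%). The receptor LGR5 fell by 1.27 log2 and the secreted inhibitor DKK1 fell by 1.03. DKK1 was 6.96, 6.54 and 6.58 with siRNA-1 and 6.56, 6.47 and 6.18 with siRNA-2, against 7.57, 7.91, 7.76 and 7.66 in controls, and passed with both siRNAs (adjusted p = 0.000304 and 0.000548, limma).

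Splitting the genes by symbol prefix showed 1 family that stood out upward, found after the values were seen. Of 30 prefixes with at least 40 measured genes, ZNF, the zinc finger proteins, most of which bind DNA and many of which recruit silencing complexes to transposable elements, had 108 of 492 members higher (22.0%) and 12 lower (2.44%), against 5.27% and 6.32% of all clusters. Relative to the control mean of each gene, the median ZNF gene lay at 0.12, 0.23 and 0.18 in siRNA-1 replicates 1, 2 and 4, against -0.04, -0.01, 0.02 and 0.03 in control replicates 1 to 4. The family median was 0.15 log2 with siRNA-1 and -0.05 with siRNA-2, and 114 members were higher with siRNA-1 than with siRNA-2. On leaving out 1 array, the higher members numbered 64 to 113 and the lower ones 9 to 13.

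The ZNF genes with the largest differences were modest in level. ZNF528 was 6.87, 7.69 and 7.75 with siRNA-1, against 5.93, 6.10, 6.01 and 6.24 in controls (difference 1.37 ± 0.19, SE; adjusted p = 0.000236, limma). ZNF425 was 6.64, 6.97 and 6.64 with siRNA-1, against 5.51, 5.72, 5.25 and 5.24 in controls (difference 1.32 ± 0.14, SE; adjusted p = 4.76e-05, limma). ZNF285 and ZNF284 rose by 1.38 and 1.28 log2, and ZNF718 fell by 0.81. Zinc finger genes share repeated sequence, and signals of related members may not be fully separate. Of the 40 kinesin genes (KIF), 12 were lower and 2 higher, and of 349 olfactory receptor genes (OR) 3 were higher and 2 lower. The shares of all clusters were 6.32% lower and 5.27% higher. KIF genes were above that share for lower calls and near it for higher calls, and OR genes were below both. Lower kinesins such as KIF11 and KIF20B also belong to the mitosis list, so the KIF count is not independent of that list.

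**Figure D3:**
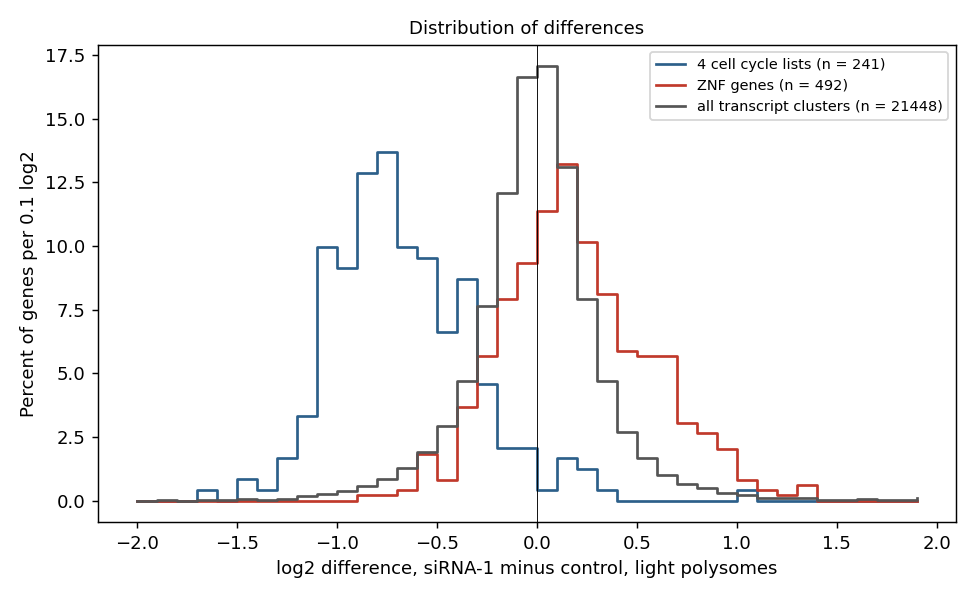
Percent of genes (vertical axis) per 0.1 log2 of difference, siRNA-1 minus control in light polysomes (horizontal axis, values past 2 drawn in the outermost steps), for the 241 measured genes of the 4 cell cycle lists, 492 ZNF genes and all 21448 transcript clusters. The cell cycle genes form a separate hump below 0, and the ZNF genes are shifted and skewed upward around a median of 0.15.

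mRNAs at either end of the ribosome load range changed most often. Clusters were ranked by the heavy minus light level in the siRNA-2 arrays, which did not enter the difference between siRNA-1 and control, and divided into 5 equal groups. In the group richest in light polysomes (heavy minus light from -2.17 to -0.27 log2), 8.67% were higher and 10.6% lower with siRNA-1. In the middle group 3.05% were higher and 3.15% lower, and in the group richest in heavy polysomes (0.26 to 1.83 log2) 6.32% were higher and 8.67% lower. Median differences of the 5 groups lay between -0.02 and 0.02. The groups were not matched for signal level, and the part of level in these shares was not tested.

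The direction of the calls varied with signal level. With clusters divided by their mean light level in the siRNA-2 arrays, the share lower with siRNA-1 was 0.839%, 1.66%, 4.31%, 9.93% and 14.9% from the dimmest to the brightest group. The share higher was 3.43%, 4.85%, 6.85%, 7.11% and 4.1% over the same groups. Dim clusters can fall only to background, and the part of this limit in these shares was not tested.

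**Figure D4:**
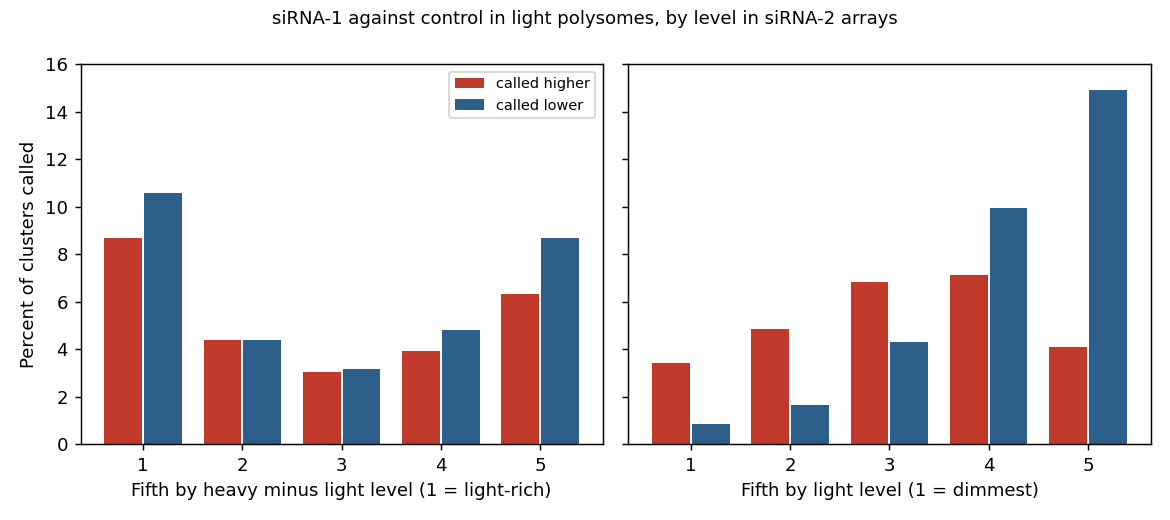
Percent of transcript clusters called higher (red) or lower (blue) with siRNA-1 against control in light polysomes (vertical axis, from 0), in 5 equal groups by heavy minus light level (left panel) and by light level (right panel) of the siRNA-2 arrays. Both ends of the left panel are higher than its middle, and the blue bars of the right panel grow to 14.9% in the brightest group.

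The same genes were then followed in heavy polysomes, to compare the fractions. Between siRNA-1 and control heavy arrays 1912 clusters (8.91%) differed, 1219 (5.68%) higher and 693 (3.23%) lower. With the replicate number as a block, which the labels do not say pairs the samples, 3501 passed, and the heavy arrays lay along the first component of all arrays by number, from -26.3 to -6.50 for replicate 1, from -36.7 to -23.4 for replicate 2 and from -46.0 to -44.4 for replicates 3 and 4. The overlaps that follow rest on the fit without the block. Of the clusters higher in light polysomes, 665 were also higher in heavy ones, 58.8% of the light and 54.6% of the heavy calls. Of those lower in light polysomes, 512 were also lower in heavy ones, 37.8% of the light and 73.9% of the heavy calls, and 0 were called in opposite directions. Over all light calls, shared ones included, 1089 of 1130 higher and 1320 of 1356 lower clusters had the same sign in heavy polysomes.

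The difference itself was tested on light minus heavy values of each transfection, with a light and a heavy array of equal siRNA and number counted as 1 transfection, a pairing that the labels leave unstated. No cluster (0.0%) passed, with 1206 (5.62%) at an unadjusted p under 0.05 (limma). The medians in light and heavy polysomes were -0.73 and -0.55 for E2F targets, -0.78 and -0.62 for mitosis genes, -0.64 and -0.45 for homologous recombination and Fanconi genes and -0.52 and -0.55 for histones. In the same order of lists, 57, 77, 18 and 26 members were lower in light polysomes and 38, 54, 16 and 19 in heavy ones, and 0 members passed the test of the difference. The heavy counts rest on the fit without the replicate block, and a count of calls depends on spread as well as on size. ZNF genes had medians of 0.15 in light and 0.17 in heavy polysomes, with 108 and 107 members higher.

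The smallest p-values of that test belonged to genes that did not pass and are given as values. For SLITRK6, GDF9 and CTSO the light control signals were not above background, so their fitted light differences are not exact, and background in heavy arrays was not assessed. SLITRK6 was higher by 3.79 log2 in light and by 2.41 in heavy polysomes (adjusted p of the difference = 0.231, limma). GDF9 was higher by 2.10 in light and 0.66 in heavy polysomes (adjusted p = 0.231, limma), and TP53TG3C by 2.28 and 1.10 (adjusted p = 0.316, limma). TP53TG3D, the near-identical copy of TP53TG3C, was higher by 2.60 in light and 1.99 in heavy polysomes (adjusted p = 0.914, limma). In the other direction, MIGA1, a mitochondrial fusion factor, was higher by 0.57 in light and 1.48 in heavy polysomes (adjusted p = 0.231, limma). CTSO, a lysosomal cysteine protease, was higher by 1.85 in light and 2.72 in heavy polysomes (adjusted p = 0.316, limma). The remaining genes with the smallest p-values had opposite signs in light and heavy polysomes. TMEM59 stood at -0.12 in light and 0.77 in heavy polysomes, and ALDH1L1 at 0.44 and -0.43 (adjusted p of the difference = 0.316 for each, limma). GKAP1 (-0.43 and 0.81), LYPD1 (-0.50 and 0.54) and PKD2L2 (0.79 and -0.08) were not above background in either light group.

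**Figure D5:**
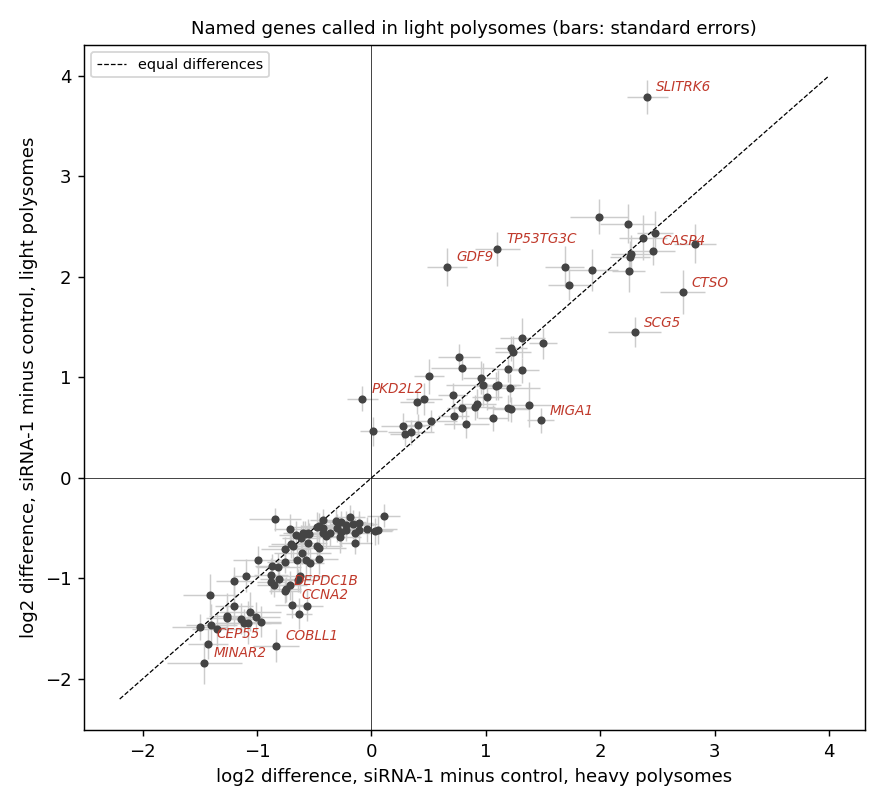
Log2 difference of siRNA-1 minus control in light polysomes (vertical axis) against that in heavy polysomes (horizontal axis) for the named genes called in light polysomes, with bars for standard errors and a dashed line of equal differences. Most genes lie near the line, with GDF9 (2.10 in light, 0.66 in heavy) and SLITRK6 (3.79 and 2.41) above it and MIGA1 (0.57 and 1.48) and CTSO (1.85 and 2.72) below it.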

How the data were processed

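The authors hybridised light and heavy polysome RNA of BE(2)-C cells to Clariom S arrays and deposited log2 values from RMA (robust multi-array average, oligo package), which corrects background, normalises by quantiles and summarises probes. R 3.5.3 and limma 3.38.3 are credited in the submitters' processing notes, and no genome build is given in the sources used here. The table held 27189 rows, of which 5741 were no transcript clusters and were not tested. Of the 21448 clusters tested, 17709 had 1 gene symbol in the platform annotation and 3739 none. For 20 symbols with more than 1 cluster the brightest was used.

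Tests used R 4.3.3 and limma 3.58.1 (lmFit, eBayes) over the 10 light arrays with p-values adjusted over all clusters (Benjamini-Hochberg) and a threshold of 0.05, and the script was tested on simulated data. Heavy arrays were fitted the same way. The number of arrays limits the precision. Groups and replicate numbers came from the sample titles. Members, lists and tests were chosen with earlier results of these data known. Named genes were the 15 largest called differences in each direction, the lowest p-values of each list (at most 4 genes), genes named in the study and the smallest p-values of the light minus heavy test. ZNF genes, MCM2, MCM7, MCM6 and SGO1 and the names in counts of 5 or fewer were added after values were seen. Of 1331 list entries 1193 were measured. Alternatives changed the samples fitted, scaling, filter, variance model, weights and threshold, added the replicate number as a block, or left arrays out. Splitting genes by protein length, which had been planned, was not run. siRNA sequences are not printed. A value under the 95th percentile of the negative control probe sets on every array of a group gave a bound on the fold, computed against that percentile.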

Additional observations from a re-analysis of the deposited data

Results flagged for a closer look

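In 8 of the 169 named genes, 1 of the 4 control light arrays lay far from the other 3 (the gap over the range was above Dixon's critical value for 4 samples). Chance gives such a gap in about 1 of 20 groups, which is near this number. Control replicate 3 was lowest for ANO3, at 4.89 with the others at 5.22 to 5.26, and highest for SDF2L1, at 8.35 with the others at 8.11 to 8.12, and for COL5A1, at 5.16 with the others at 4.83 to 4.88. Control replicate 1 was highest for FILIP1L, at 4.70 with the others at 4.47 to 4.49, and lowest for ATG14, at 7.78 with the others at 7.99 to 8.03. Control replicate 2 was lowest for TUBB2B, at 8.04 with the others at 8.42 to 8.45, and for EIF2B3, at 8.30 with the others at 8.48 to 8.52. Control replicate 4 was lowest for CLSPN, at 7.08 with the others at 7.29 to 7.32. Without the array in question, SDF2L1, an endoplasmic reticulum protein, and COL5A1, a fibrillar collagen chain, no longer passed (adjusted p = 0.0532 and 0.0632, limma), while ANO3, FILIP1L, ATG14, EIF2B3 and CLSPN kept their direction and stayed past the threshold.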

How the results depend on the processing

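The light comparison was run under 19 alternatives, and in none did a called cluster pass in the opposite direction. Without replicate 1 in every group 1482 clusters passed (747 higher, 735 lower), which kept 54.9% of the calls. At 1.5-fold or more 1503 passed (693 and 810), and with an unadjusted p 1565 (725 and 840). Leaving out 1 array gave 1531 to 2427 clusters (689 to 1153 higher and 842 to 1315 lower), lowest without siRNA-1 replicate 2. The other settings gave 2133 to 2849. In the fits of siRNA-1 against siRNA-2, leaving out 1 array gave 1567 to 2790, lowest without siRNA-2 replicate 3. For siRNA-2 against control it gave 19 to 124, and 19, 21 and 32 without siRNA-2 replicates 3, 2 and 1, and 35, 33 and 25 without control replicates 1, 2 and 4, alternatives chosen after seeing the data. In heavy polysomes it gave 913 to 1881, lowest without siRNA-1 replicate 2. The light minus heavy test gave 1 cluster without replicate 1 and 0 otherwise.

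Same-numbered siRNA-1 and control light arrays deviated together at r = 0.31, -0.00 and 0.14. Control and siRNA-2 arrays of numbers 1, 2 and 3 did so at 0.02, 0.27 and 0.40. For siRNA-1 and siRNA-2 arrays of numbers 1 and 2 it was -0.01 and -0.10. The numbers were not taken as pairs in the main light and heavy fits. These values do not settle whether they mark pairs. With the replicate number as a block 2710 clusters passed in light polysomes (1285 higher, 1425 lower), 2433 between the siRNAs, 3501 in heavy polysomes, 100 for siRNA-2 and 0 for light minus heavy. Of 129 named genes called, 88 passed in all 19 alternatives and 0 changed sign. List counts were 46 to 58 of 70 for E2F targets, 69 to 79 of 88 for mitosis, 9 to 36 of 51 for histones and 8 to 16 of 46 for lysosome genes. The cause of these moves was not tested.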

Other observations

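Endoplasmic reticulum, sterol and stromal genes are added here as values. Of 24 genes of the unfolded protein response, 4 were lower (16.7%) and 0 higher with siRNA-1, against 6.32% and 5.27% of all clusters. Among the lower ones was XBP1, at -0.57 log2 (adjusted p = 0.00547, limma). But the list median moved with the array, at 0.12, -0.34 and -0.31 in siRNA-1 replicates 1, 2 and 4, against 0.12, -0.11, 0.04 and -0.17 in control replicates 1 to 4. XBP1 encodes a transcription factor of that response. Of 26 cholesterol and fatty acid synthesis genes, 3 were lower (11.5%) and 1 higher (3.85%). INSIG1, which retains the sterol sensor in the endoplasmic reticulum, fell by 0.66 log2, and SREBF2, the transcription factor of sterol synthesis, rose by 0.44 (adjusted p = 0.00602 and 0.0314, limma), a call that SREBF2 lost without siRNA-1 replicate 2 or 4 or control replicate 1, 2 or 4 (adjusted p up to 0.137, limma).

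Of 38 interferon-stimulated and RNA-sensing genes, 3 were higher (7.89%) and 1 lower (2.63%), against 5.27% and 6.32% of all clusters. The 3 were SAMD9, PARP14 and PARP9. PARP14 was higher by 0.73 log2 with overlapping arrays (adjusted p = 0.0484, limma) and did not pass on leaving out any array but siRNA-1 replicate 1, with differences of 0.38 to 1.00 and an adjusted p of up to 0.238. PARP9 did not pass without siRNA-1 replicate 2 or control replicate 1 or 4 (adjusted p up to 0.124, limma). ADAR, the RNA-editing enzyme, fell by 0.55 log2 (adjusted p = 0.0207, limma), and did not pass without siRNA-1 replicate 1 or control replicate 3 (adjusted p up to 0.091, limma). Of 49 collagen and matrix genes, 3 were higher (6.12%), LUM, DCN and COL4A6, and 1 lower (2.04%), COL5A1, against 5.27% and 6.32% of all clusters. Control signals of COL4A6 were not above background, so its rise was at least 1.22-fold. For COL5A1 the siRNA-1 signals were not above background, and no bound on its fall could be given. COL4A6 (adjusted p = 0.048, limma) did not pass on leaving out any array but siRNA-1 replicate 2 or control replicate 4 (adjusted p up to 0.187, limma).

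Other lists gave few calls, with shares under those of all clusters (5.27% higher and 6.32% lower). With siRNA-1, 1 of 31 proteasome subunits was higher (3.23%) and 1 lower (3.23%). Of 47 splicing factors, 1 was higher (2.13%) and 2 lower (4.26%). Of 26 ERK target genes CCND1 alone passed (3.85%), at -0.41 log2. It did not pass without siRNA-1 replicate 1 or 2 or control replicate 1, 3 or 4 (adjusted p up to 0.0824, limma). Of 17 tubulins, TUBD1, the delta tubulin, passed (5.88%), at -0.97 log2.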
